A study of Homo sapiens with 4 samples.

Results

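Amino acid transporters of the solute carrier families SLC1, SLC7, SLC36, SLC38 and SLC43 were followed in H1299 cells, a human lung carcinoma line, after treatment with ginseng nanoparticles. The members are the protein-coding genes whose symbol is SLC1A, SLC7A, SLC36A, SLC38A or SLC43A with a number, SLC7A11 left out. The rule gave 37 of 61541 gene rows, of which 18 had a mean of at least 1 CPM (counts scaled to library size) over the 4 libraries and 19 did not. The 2 groups, with 2 libraries each, were H1299 cells given ginseng nanoparticles and H1299 cells given phosphate-buffered saline (PBS). All cells were grown in Dulbecco's modified Eagle medium with fetal bovine serum. The study asked how the particles affect migration of cancer cells and sequenced polyadenylated RNA for transcripts related to it. The particles were extruded from several organs of fresh ginseng, and the labels used here state neither which organ, nor the dose, nor the hours of exposure. Separate cultures are not stated for the replicates, so p-values measure only the scatter of the 4 libraries, and that scatter may be technical.

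Counts on genes were 24979081 and 24863313 in the nanoparticle libraries and 22252686 and 22456882 in the PBS libraries. The labelled carcinoma line was checked against markers of its own and of other cell types. The epithelial keratins KRT8 and KRT18 stood at 587 to 603 and 915 to 927 CPM in the nanoparticle libraries and at 641 to 643 and 1019 to 1032 CPM in the PBS libraries, whereas the epithelial genes KRT19, EPCAM and CDH1 were at or below 0.403 CPM in every library. The 4 leukocyte markers summed to 0.680 and 0.724 CPM in the nanoparticle libraries and to 0.495 and 0.671 CPM in the PBS libraries, with PTPRC at 0 in all 4. The 3 endothelial markers summed to at most 0.760 CPM and the 4 fibroblast markers to at most 1.25 CPM in any library.

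Amino acids cross the plasma membrane through carriers that differ in substrate and driving force. SLC1 members move glutamate or small neutral amino acids with sodium, SLC38 members of system A take up glutamine and other neutral amino acids with sodium, and SLC7 light chains exchange one amino acid for another after pairing with the heavy chain SLC3A2. Tumour cells are known to rely on the glutamine carrier SLC1A5 and the leucine exchanger SLC7A5, and several of these genes are induced by the transcription factor ATF4 when amino acids run short.

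Levels were compared between genes per length, as CPM per kilobase of the principal GENCODE 29 transcript, 1 transcript per gene. SLC7A5, the large neutral amino acid exchanger LAT1, and SLC38A2, the system A carrier SNAT2, were the most abundant members. SLC7A5 had 97.8 and 94.9 CPM per kilobase in the nanoparticle libraries and 89.8 and 95.9 in the PBS libraries, and SLC38A2 had 93.1 and 93.3 in the nanoparticle libraries and 91.9 and 90.0 in the PBS libraries, so that these neighbours overlapped. SLC1A5 (ASCT2) followed at 59.98 and 62.7 CPM per kilobase in the nanoparticle libraries and 63.3 and 63.5 in the PBS libraries. Next came SLC38A10, a member of the SLC38 family found inside cells, and SLC38A1, the system A carrier SNAT1, whose ranges over the 4 libraries overlapped (44.1 to 45.9 and 44.0 to 45.6 CPM per kilobase). These 5 genes held 80.4% and 80.3% of the members' summed level per length in the nanoparticle libraries, against 81.1% and 80.7% in the PBS libraries.

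**Figure D1:**
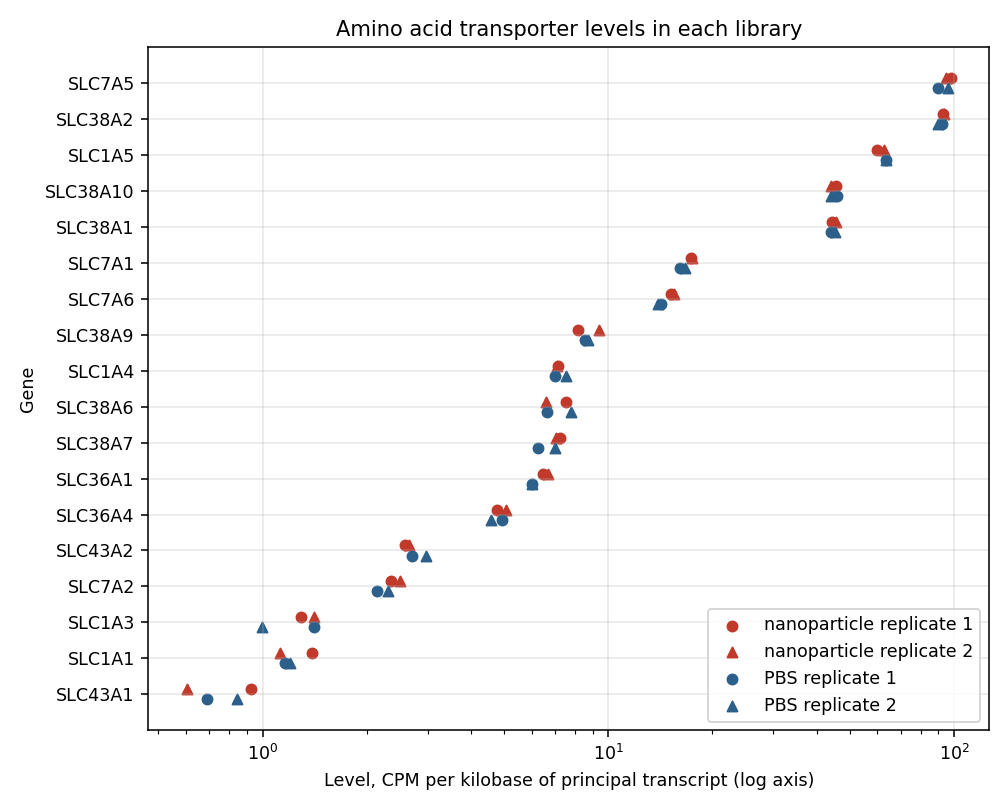
The level of each of the 18 transporters of at least 1 CPM is plotted in CPM per kilobase of principal transcript on a log axis, with red symbols for the nanoparticle libraries above blue symbols for the PBS libraries in each row. SLC7A5 and SLC38A2 lie near 90 to 98 in every library and SLC43A1 lies below 1, and the libraries of a gene lie close together compared with the distance between most genes.

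Below these, SLC7A1, the cationic amino acid carrier CAT1, had 16.1 to 17.4 CPM per kilobase over the 4 libraries and SLC7A6, the light chain y+LAT2, had 13.96 to 15.5. SLC38A9, the arginine sensor of the lysosomal membrane, lay between 8.15 and 9.37. SLC1A4 (ASCT1), SLC38A6, SLC38A7 and SLC36A1 lay between 5.995 and 7.82, and each overlapped its neighbour in that order. SLC36A4 had 4.56 to 5.06, SLC43A2 (LAT4) 2.58 to 2.96 and SLC7A2 (CAT2) 2.14 to 2.49, each apart from its neighbours. The glutamate carriers SLC1A3 (EAAT1) and SLC1A1 (EAAT3) overlapped at 0.998 to 1.41 and 1.12 to 1.39, and SLC43A1 (LAT3) was the lowest at 0.603 to 0.924.

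Closely related members differed widely in level. Among the light chains, SLC7A8 (LAT2) had 1 and 0 counts in the nanoparticle libraries and 0 counts in both PBS libraries, and SLC7A7 (y+LAT1) had 16 and 14 counts in the nanoparticle libraries and 10 and 13 in the PBS libraries. Of the 19 members under 1 CPM, 10 had 0 counts in every library. They were the glutamate carriers SLC1A6 and SLC1A7, the SLC7 members SLC7A3, SLC7A4 and SLC7A14, SLC36A2 and SLC36A3, and SLC38A3, SLC38A4 and SLC38A11. A count of 0 allows a level of up to 0.120 and 0.121 CPM in the nanoparticle libraries and up to 0.135 and 0.134 CPM in the PBS libraries, counting error only. The other 9 were SLC7A7, SLC7A8, SLC1A2, SLC7A9, SLC7A10, SLC7A13, SLC38A5, SLC38A8 and SLC43A3. Of the 19, SLC7A7 was the one that passed the filter on low counts, and each of the rest had at most 19 counts over all 4 libraries. The largest such total belonged to SLC38A5, a system N carrier, with 8 and 5 counts in the nanoparticle libraries and 2 and 4 in the PBS libraries.

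Promoter sequence was searched for 2 short motifs, because both kinds of element are known to act on amino acid transporter genes. The motif TGATGNAA is the core of the amino acid response element bound by ATF4 with C/EBP proteins, and TGACNNNGC is the core of the antioxidant response element bound by NRF2. RefSeq promoters of GRCh38.p14, from 250 bases before to 50 bases after each listed start and searched on both strands, were at hand for 17 of the 18 members of at least 1 CPM. TGATGNAA occurred in 5 of the 17 genes, against 4.46% of 27305 genes, and TGACNNNGC also in 5 of the 17, against 16.1% of genes. A gene counted as matched if any of its listed starts had a match, so genes with more starts had more windows. The shares cover all genes with a RefSeq promoter whatever their level, whereas the 17 were chosen by level. Of 50 promoters listed for 30 of all 37 members, those under 1 CPM included, 5 held TGATGNAA (3.62% of all 35116 promoters) and 6 held TGACNNNGC (13.3%), 1 of these being that of SLC7A7. TGATGNAA was found in SLC1A3, SLC1A4, SLC1A5, SLC38A1 and SLC7A1, and TGACNNNGC in SLC1A3, SLC1A5, SLC7A1, SLC7A5 and SLC7A6. Both motifs were therefore found for SLC1A3, SLC1A5 and SLC7A1. In SLC7A1 they lay in the window of the same listed start. In SLC1A3 and SLC1A5 the motifs lay in windows of different listed starts, so no single promoter of these genes is shown with both. The lines below give 30 bases in gene orientation with the match in capitals, for some of these matches only.
SLC7A1, TGATGNAA: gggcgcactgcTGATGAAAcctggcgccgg
SLC38A1, TGATGNAA: tcagacccgaaTGATGAAAagggatcagct
SLC1A5, TGATGNAA: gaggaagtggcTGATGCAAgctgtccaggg
SLC1A4, TGATGNAA on the other strand: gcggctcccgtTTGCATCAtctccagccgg
SLC7A6, TGACNNNGC: ccggcggcgggTGACGTGGCggggcggggc
SLC7A5, TGACNNNGC: ggcggggttccTGACGCAGCtgcgggcggc

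The SLC7A1 window is chr13:29595663-29595692 on the minus strand, and its match begins 8 bases into the transcript. The SLC38A1 window is chr12:46266502-46266531 and the SLC1A5 window chr19:46784893-46784922, both on the minus strand, with matches beginning 4 and 97 bases before a listed start. The SLC1A4 window is chr2:64989381-64989410 on the plus strand. The SLC7A6 window is chr16:68264486-68264515 on the plus strand, and the SLC7A5 window is chr16:87869491-87869520 on the minus strand. For SLC38A2 the known amino acid response element lies in the first intron, outside the window searched. A match describes the letters in the window and shows no binding.

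None of the 18 members of at least 1 CPM passed a Benjamini-Hochberg adjusted p of 0.05 for nanoparticle against PBS in edgeR's quasi-likelihood test, adjusted over all 15778 genes tested, and neither did SLC7A7. Over all genes 2.58% passed in either direction, 1.75% higher and 0.83% lower with nanoparticles. By DESeq2's Wald test and by limma-voom none of the 18 passed either. Over all tested genes 90 passed by DESeq2 and 424 by limma-voom, against 407 in edgeR. At an unadjusted p under 0.05 there were 3 members in edgeR (16.7%, against 16.8% of all tested genes). There were 3 in limma-voom and 1 in DESeq2, for which the share over all genes is not given here. The 3 in edgeR, SLC7A6, SLC36A1 and SLC7A1, were all higher with nanoparticles, as were 9.18% of all tested genes at that p. Log2 fold changes of the 18 ran from -0.11 to 0.17 with a median of 0.043, against a median of 0.0006 over all tested genes. They were above 0 in 12 of the 18 (66.7%), against 50.2% of all tested genes.

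The size of change that these libraries allow is set by the 95% intervals of the edgeR fold changes, each for its gene alone and not adjusted for the number of genes. For 6 members the interval lay within 10% of no change in both directions, and these were SLC7A5, SLC38A2, SLC1A5, SLC38A10, SLC38A1 and SLC1A4. For 14 of the 18 it lay within 20%, and for all 18 within 1.5-fold. The exceptions to 20% were SLC7A2, whose interval ended at 21.8% higher, and the low genes SLC1A3, SLC1A1 and SLC43A1, whose intervals ended at 38.9%, 31.0% and 38.1% higher. Within the 18, the nanoparticle libraries were both above the PBS libraries in 6 members (33.3%, against 23.7% of all tested genes) and both below in 2 (11.1%, against 23.2%).

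**Figure D2:**
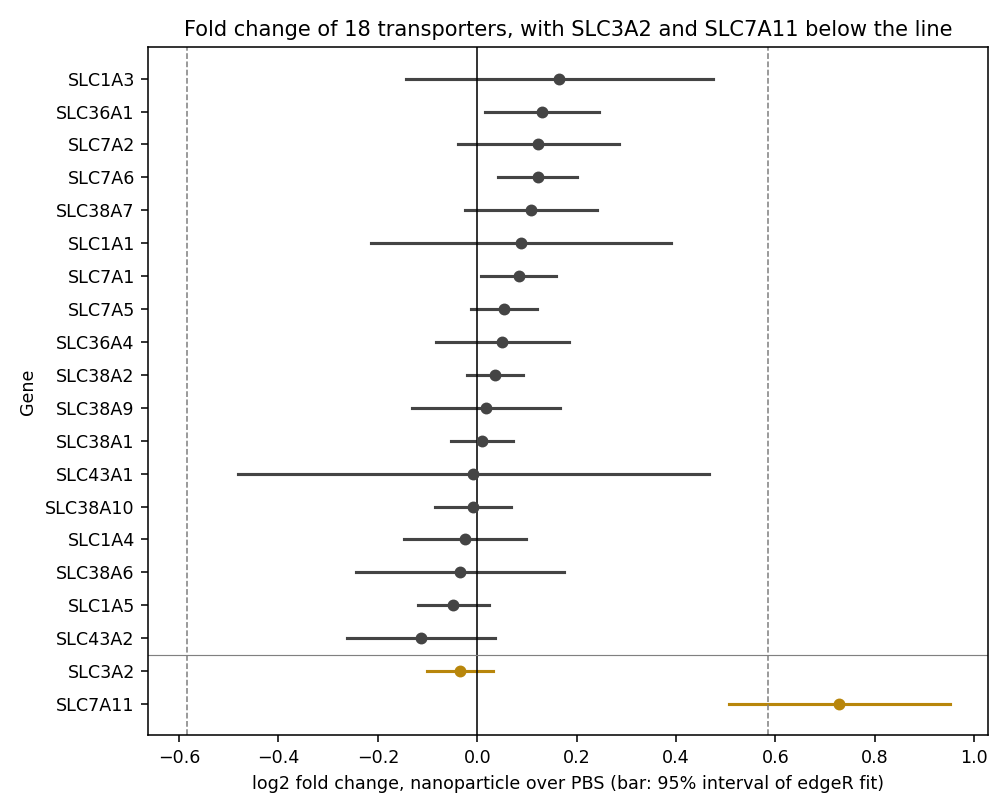
Points give the log2 fold change of nanoparticle over PBS and bars its 95% interval in the edgeR fit, for the 18 transporters in order of fold change, with SLC3A2 and SLC7A11 below the grey line and dashed lines at 1.5-fold. All 18 intervals lie inside the dashed lines, and those of SLC36A1, SLC7A6 and SLC7A1 do not reach 0, while the interval of SLC7A11 runs from 0.51 to 0.95.

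Of the SLC7 light chains, which exchange amino acids as partners of SLC3A2, SLC7A6 had the smallest p of all members. SLC7A6 had 95.8 and 97.5 CPM in the nanoparticle libraries and 89.5 and 88.1 CPM in the PBS libraries. The groups did not overlap, and the log2 fold change was 0.12 with a standard error of 0.038 (edgeR unadjusted p = 0.00459, adjusted p = 0.0981). The gene lies on chromosome 16 from 68264516 to 68301823 on the plus strand (GRCh38, GENCODE 29), and its exons overlap those of SLC7A6OS on the opposite strand, which had a log2 fold change of -0.025. The sources used here do not say whether the counting used strand, so reads of such overlapping pairs may not be told apart. SLC7A5, which imports leucine and other large neutral amino acids, had 444 and 431 CPM in the nanoparticle libraries and 407 and 435 CPM in the PBS libraries. Here the groups overlapped, and the log2 fold change of 0.053 (SE 0.032) had an edgeR adjusted p of 0.421. It was 0.0050 without PBS replicate 1 and 0.10 without PBS replicate 2. SLC7A5 lies on chromosome 16 from 87830023 to 87869488 on the minus strand, and its pseudogenes SLC7A5P1 and SLC7A5P2, which could share its reads, had 0 counts in all 4 libraries. Those 0 counts do not show whether reads were shared, since reads that match several places may have been counted for no gene.

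The cationic branch of SLC7 carries arginine, lysine and ornithine. SLC7A1 had 127 and 128 CPM in the nanoparticle libraries and 118 and 123 CPM in the PBS libraries, without overlap (log2 0.083, SE 0.036, edgeR adjusted p = 0.24). SLC7A2, which is known for inducible arginine uptake in immune cells, had 17.96 and 19.1 CPM in the nanoparticle libraries and 16.4 and 17.6 CPM in the PBS libraries (log2 0.12, SE 0.078, edgeR adjusted p = 0.46). Both genes were higher in each nanoparticle library than in each PBS library, by amounts that did not pass the test.

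In SLC1, SLC1A5 imports glutamine in exchange for other neutral amino acids. It had 173 and 181 CPM in the nanoparticle libraries and 182 and 183 CPM in the PBS libraries. The nanoparticle libraries were lower without overlap, by a log2 fold change of -0.048 (SE 0.034, edgeR adjusted p = 0.522). SLC1A4, which exchanges serine, alanine and cysteine, overlapped between groups, at 32.6 and 32.4 CPM in the nanoparticle libraries and 31.9 and 34.3 CPM in the PBS libraries. The glutamate carriers were low: SLC1A3 had 5.40 and 5.87 CPM in the nanoparticle libraries and 5.89 and 4.16 CPM in the PBS libraries, and SLC1A1 had 5.16 and 4.18 CPM in the nanoparticle libraries and 4.32 and 4.47 CPM in the PBS libraries. SLC1A3 had the highest log2 fold change of the 18, 0.17 with a standard error of 0.15 (edgeR adjusted p = 0.631), and leaving out 1 PBS library put it at -0.065 (without PBS replicate 2) or 0.44 (without PBS replicate 1).

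SLC38 holds the sodium-coupled carriers of glutamine, alanine and other neutral amino acids. SLC38A2, the member known to be induced when amino acids are withdrawn, had 455 and 456 CPM in the nanoparticle libraries and 449 and 440 CPM in the PBS libraries. The groups did not overlap, but the log2 fold change was only 0.035 (SE 0.027), with a 95% interval from -1.48% to 6.60% and an edgeR adjusted p of 0.563. SLC38A1 overlapped between groups at 356 and 368 CPM in the nanoparticle libraries and 355 and 365 CPM in the PBS libraries, and its 95% interval ran from -3.63% to 5.05%. SLC38A10 also overlapped, with 123 and 119 CPM in the nanoparticle libraries and 124 and 120 CPM in the PBS libraries.

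SLC38A7, a lysosomal exporter of glutamine and asparagine, had 33.0 and 32.1 CPM in the nanoparticle libraries and 28.5 and 31.9 CPM in the PBS libraries. These groups were only just apart, and the log2 fold change of 0.11 (SE 0.064, edgeR adjusted p = 0.413) was 0.027 without PBS replicate 1. SLC38A9, which signals lysosomal arginine to the kinase complex mTORC1, had 23.8 and 27.4 CPM in the nanoparticle libraries and 25.1 and 25.5 CPM in the PBS libraries, with the PBS values between those of the nanoparticle libraries. SLC38A6 had 12.7 and 11.1 CPM in the nanoparticle libraries and 11.2 and 13.2 CPM in the PBS libraries, and its exons overlap those of TRMT5 on the opposite strand.

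SLC36A1 moves small amino acids together with protons and is also found in lysosomes. SLC36A1 had 37.4 and 38.6 CPM in the nanoparticle libraries and 34.7 CPM in each PBS library. The groups did not overlap, and the log2 fold change was 0.13 (SE 0.055, edgeR unadjusted p = 0.0273, adjusted p = 0.225). SLC36A1 lies on chromosome 5 from 151437046 to 151492381 on the plus strand. SLC36A4, a carrier of proline and tryptophan, had 28.6 and 30.4 CPM in the nanoparticle libraries and 29.6 and 27.4 CPM in the PBS libraries, which overlapped.

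SLC43A1 and SLC43A2 carry branched-chain and other large neutral amino acids without sodium and without a heavy chain. SLC43A2 had 21.0 and 21.6 CPM in the nanoparticle libraries and 21.9 and 24.1 CPM in the PBS libraries. The nanoparticle libraries were lower without overlap, and the log2 fold change of -0.11 (SE 0.072, edgeR adjusted p = 0.46) was the lowest of the 18 in the reported fit, and was -0.044 without PBS replicate 2 and -0.18 without PBS replicate 1. SLC43A1 had 2.40 and 1.57 CPM in the nanoparticle libraries and 1.80 and 2.19 CPM in the PBS libraries, and its 95% interval ran from -28.4% to 38.1%. SLC43A3, which transports nucleobases, had 1 count in PBS replicate 2 and 0 in the other libraries.

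Summed over all 37 members, transporters took 0.2% and 0.201% of gene counts in the nanoparticle libraries (95% Wilson intervals 0.198% to 0.201% and 0.199% to 0.202%) and 0.194% and 0.196% in the PBS libraries (0.192% to 0.196% and 0.195% to 0.198%). The intervals cover counting error only. The nanoparticle libraries were both higher, and an exact two-sided permutation test gave p = 0.333, the smallest that 2 against 2 libraries allow.

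Fold change went with transcript length in these libraries, and the transporters have long transcripts. The median principal transcript of the 18 was 4555 bases, against 2856 for all tested genes with a known length. Over 11081 genes above 5 CPM in 10 bins of length, the median log2 fold change was -0.063 in the shortest bin and 0.082 in the longest. Of the 16 members above 5 CPM, 11 lay in the 3 longest bins, 11 were above the median of their own bin and 5 below it. When the length trend of each library was removed, the median of the 18 members was 0.012, and the log2 fold change was 0.071 for SLC7A6 (edgeR unadjusted p = 0.0709, adjusted p = 0.425), 0.087 for SLC36A1 (0.123 and 0.523) and 0.020 for SLC7A1 (0.574 and 0.868). In the same fit SLC43A2 was at -0.18 (edgeR unadjusted p = 0.0159, adjusted p = 0.235) and SLC38A1 at -0.062 (0.0435 and 0.351). No member passed before or after the removal.

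**Figure D3:**
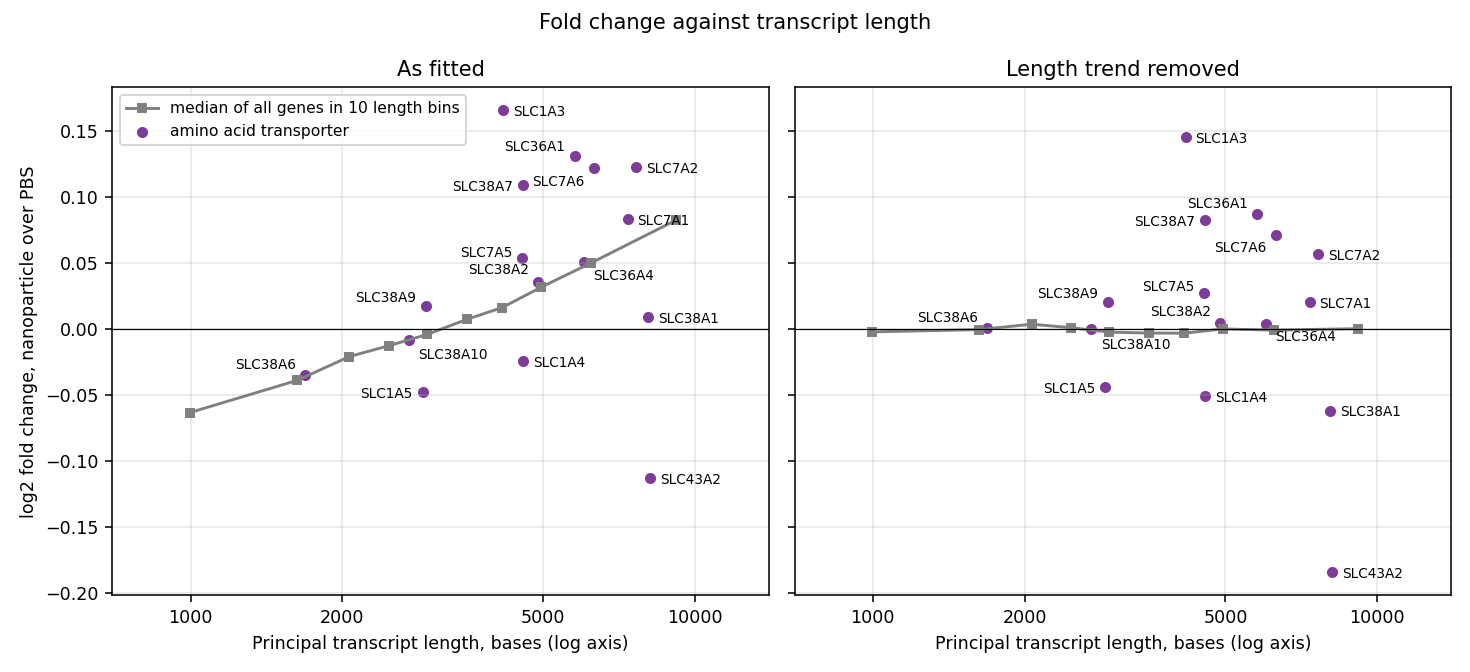
Each purple point is 1 of the 16 transporters above 5 CPM, by the length of its principal transcript in bases on a log axis and its log2 fold change of nanoparticle over PBS, and grey squares are medians of all genes above 5 CPM in 10 length bins at the median length of each bin. In the left panel the grey line climbs from -0.063 to 0.082 and most points lie near or above it, and in the right panel, with the length trend removed, the line is flat near 0 with SLC43A2 the lowest point at -0.18.

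SLC7 light chains work as pairs with a heavy chain, whose level was read beside theirs. SLC3A2, the 4F2 heavy chain that brings SLC7 light chains to the plasma membrane, had 226 and 222 CPM in the nanoparticle libraries and 227 and 231 CPM in the PBS libraries (log2 -0.035, SE 0.032, edgeR adjusted p = 0.642). SLC3A1, the heavy chain of kidney and intestine, had at most 1 count in any library. SLC7A11, the cystine-glutamate exchanger, had 14.2 and 13.8 CPM in the nanoparticle libraries and 9.53 and 7.38 CPM in the PBS libraries, and its adjusted p was 0.000555 in edgeR (log2 0.73, SE 0.11). Its log2 fold change was 0.92 without PBS replicate 1 and 0.56 without PBS replicate 2, where no gene of any kind passed, and it passed in 11 of the 14 alternative fits, without either nanoparticle library among them. Per length, SLC7A11 stood at 1.48 and 1.43 CPM per kilobase in the nanoparticle libraries and 0.988 and 0.765 in the PBS libraries. The light chains SLC7A5, SLC7A6, SLC7A7, SLC7A8 and SLC7A10 together with SLC7A11 summed to 1.099 and 1.09 times the level of SLC3A2 per kilobase in the nanoparticle libraries, and to 1.00 and 1.04 times in the PBS libraries. These ratios, in which SLC7A5 was the largest part, were not corrected for the length trend. With that trend removed the log2 fold change was 0.027 for SLC7A5 (edgeR adjusted p = 0.7785) and -0.013 for SLC3A2 (adjusted p = 0.916).

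Genes that act with these transporters were read from lists. Among 6 tested carriers of the SLC6 and SLC16 families 1 passed the edgeR test, and it was higher, against 1.75% of all tested genes called higher. SLC6A17, a carrier of neutral amino acids known from synaptic vesicles, rose, with 62.6 and 52.9 CPM in the nanoparticle libraries and 41.8 and 46.0 CPM in the PBS libraries (log2 0.40, SE 0.066, edgeR adjusted p = 0.00182). It did not pass without nanoparticle replicate 1 in edgeR (log2 0.27, adjusted p = 0.0581) nor by DESeq2 (log2 0.39, adjusted p = 0.292). With PBS replicate 1 left out SLC6A17 was at 0.33, and with PBS replicate 2 left out at 0.47. The list median was 0.046. None of 5 lysosomal exporters and none of 10 mitochondrial carriers passed in edgeR, against 2.58% of all tested genes. At an unadjusted p under 0.05 there were 0 and 1, against 16.8% of all tested genes, and the medians were -0.064 and 0.029. The smallest p in these lists belonged to CTNS, the lysosomal cystine exporter (log2 -0.077, SE 0.048), and SLC25A22, a mitochondrial glutamate carrier (log2 -0.11, SE 0.041).

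Of 26 tested genes of ATF4 and the amino acid response 1 passed in edgeR, higher (1.75% of all tested genes were called higher), 4 had an unadjusted p under 0.05 (16.8% of all tested genes did), and the list median was -0.0042. The one that rose was CTH, which makes cysteine from cystathionine, with 9.002 and 8.36 CPM in the nanoparticle libraries and 6.20 and 6.22 CPM in the PBS libraries (log2 0.48, SE 0.11, edgeR adjusted p = 0.0231). With nanoparticle replicate 1 left out CTH was at a log2 fold change of 0.43 (edgeR adjusted p = 0.118), with replicate 2 left out at 0.54 (adjusted p = 0.0966) and by DESeq2 at 0.48 (adjusted p = 0.437), none past the threshold. It was at 0.48 when either PBS library was left out. ATF4 itself had 360 and 363 CPM in the nanoparticle libraries and 342 and 351 CPM in the PBS libraries (log2 0.060, SE 0.029, edgeR adjusted p = 0.302). None of 34 tested genes of amino acid sensing to mTORC1 passed in edgeR, against 2.58% of all tested genes. Of the 34, 6 had an unadjusted p under 0.05, as did 16.8% of all tested genes, and the median was 0.015. The smallest p there belonged to RPTOR, the scaffold of mTORC1 (log2 0.15, SE 0.044, edgeR adjusted p = 0.0851), and to FNIP1, a partner of folliculin (log2 0.18, SE 0.056, adjusted p = 0.0972). RPTOR passed in edgeR when testing was limited to genes averaging at least 50 counts (adjusted p = 0.0481) and with the replicate number as a block (0.0287). With nanoparticle replicate 1 left out RPTOR was at a log2 fold change of 0.080 (edgeR adjusted p = 0.482), and after removal of the length trend it was at 0.095 (adjusted p = 0.355).

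Of 5 tested ubiquitin ligases and adaptors of transporter endocytosis none passed in edgeR and none had an unadjusted p under 0.05. Over all tested genes the shares were 2.58% and 16.8%. NEDD4L and NEDD4 had log2 fold changes of -0.092 (SE 0.050) and 0.073 (SE 0.046).

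**Figure D4:**
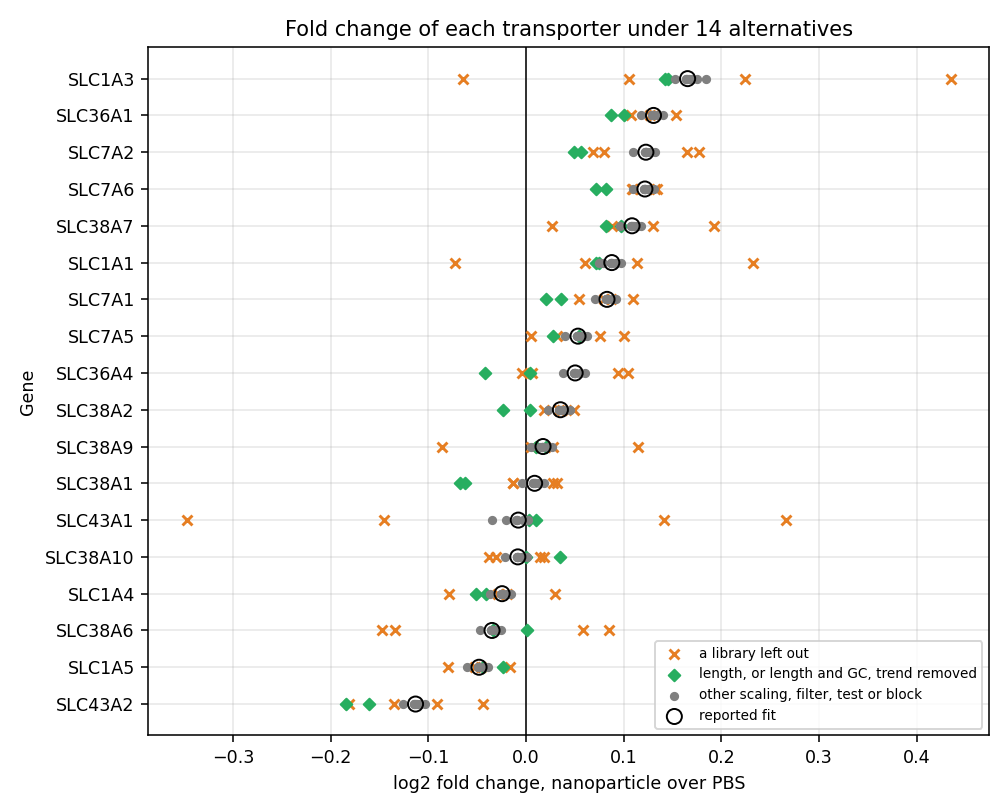
For each of the 18 transporters the log2 fold change of nanoparticle over PBS is shown in the reported fit (open circle) and under 14 alternatives (filled symbols and crosses, as in the legend). SLC7A6 stays between 0.071 and 0.13 and SLC36A1 between 0.087 and 0.15, while SLC43A1 spreads from -0.35 to 0.27 when a library is left out.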

How the data were processed

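Polyadenylated RNA of 4 H1299 libraries, 2 nanoparticle and 2 PBS, was grouped by the treatment label, since the titles of the nanoparticle libraries also hold the word control. Each deposited table gives unscaled read counts, 1 Ensembl gene to a line. The submitters' processing notes name GRCh38 as the build and HTSeq 2.0.2, STAR 2.7.6a, Picard, cutadapt 3.5 and bcl2fastq 2.20 as tools. Strand setting and annotation release: not given in the sources used here. Closing rows for reads given to no gene (14.3% and 13.7% of reads in nanoparticle libraries, 14.8% and 14.5% in PBS libraries) were left out. A gene name table matched 61369 of 61541 rows. Length, GC content and position came from GENCODE 29, whose release may differ from the authors'.

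Genes passing filterByExpr were scaled by TMM and tested with edgeR 4.0.16 in R 4.3.3 (two-sided quasi-likelihood tests by glmQLFTest after glmQLFit). P-values were adjusted over all tested genes by Benjamini-Hochberg, with a threshold of 0.05. CPM used TMM library sizes. Standard errors came from the coefficient and its F statistic. Replicates differed beyond sampling noise (chi-square per degree of freedom 1.95 between nanoparticle and 1.78 between PBS libraries). Alternatives were RLE, upper-quartile and total-count scaling, dropping the low-count filter or raising it to 50 counts on average, DESeq2 1.42.0 without independent filtering, limma-voom (limma 3.58.1), the replicate number as a block, removal of per-library trends with length or with length and GC content (fitted by MASS 7.3.60.0.1 as a robust spline of 4 degrees of freedom on genes above 5 CPM, length known for 98.2% of tested genes), and leaving out each library. The fits were tested on simulated counts for nanoparticle against PBS with 15767 genes tested, where 26% of 1.1-fold, 74% of 1.2-fold and 100% of 1.5-fold changes were recovered among genes of at least 100 mean counts, and 5.06% of calls were false. The simulation gave every gene the same spread beyond counting error (2.46%) and no length trend, so the real data may be harder than it.

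The members and lists were chosen with earlier results of these data known. Named were all members of at least 1 CPM, list genes past the threshold or otherwise the 2 with the smallest p, and SLC7A11, SLC3A2 and the SLC7A5 pseudogenes. ATF4 was named after its value was seen. Some genes outside the family are not reported here. Alternatives for genes outside the family were added after seeing the data. Figures were drawn with matplotlib 3.10.9.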

Additional observations from a re-analysis of the deposited data

How the results depend on the processing

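No transporter passed in any of the 14 alternatives, but in 3 of them (no low-count filter, without PBS replicate 1 and without PBS replicate 2) no gene of any kind passed, so these say nothing of the calls of single genes. Where a library was left out, its group had 1 library, assumed to vary like the other group. The lowest edgeR adjusted p among the 18 was 0.0692 (SLC7A6, mean of at least 50 counts). Over all genes the 407 calls became 0 without a low-count filter (lowest edgeR adjusted p = 0.544, with an unadjusted p under 0.05 in 2297 genes), 90 by DESeq2, 227 with the length trend removed and 262 with length and GC trends removed, and 0 to 200 with 1 library left out; the cause was not tested. With the replicate number as a block 759 genes and no transporter passed. The deviations of same-numbered libraries correlated at 0.0364 across 11394 genes. This showed no effect shared by number, but it cannot tell whether such libraries shared a culture or day.

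The sign of the fold change differed from the reported one in 24 of 251 refits of the 18 genes, over 10 genes, none past the threshold in any. With length and GC trends removed the log2 fold changes were -0.024 (SLC38A2), 0.035 (SLC38A10), -0.068 (SLC38A1), -0.042 (SLC36A4) and 0.011 (SLC43A1), and with the length trend removed -0.062 (SLC38A1), 0.0009 (SLC38A6) and 0.0027 (SLC43A1). Without a low-count filter they were 0.0013 (SLC38A10) and 0.0018 (SLC43A1), and with upper-quartile scaling -0.0038 (SLC38A1). Leaving out each library in turn gave both signs for SLC38A10 (-0.037 to 0.019), SLC38A1 (-0.013 to 0.031), SLC38A9 (-0.086 to 0.11), SLC1A4 (-0.078 to 0.029), SLC38A6 (-0.15 to 0.085), SLC36A4 (-0.0039 to 0.10), SLC1A3 (-0.065 to 0.44), SLC1A1 (-0.072 to 0.23), SLC43A1 (-0.35 to 0.27) and, outside the members, TMEM104 (-0.0072 to 0.076). It also moved SLC7A2 (0.068 to 0.18), SLC7A1 (0.054 to 0.11) and SLC1A5 (-0.080 to -0.016) without a change of sign. SLC1A3, SLC1A1 and SLC43A1, the members with the fewest counts of the 18, had the widest intervals. The levels per length rest on 1 annotated transcript per gene.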

Other observations

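RefSeq names a further gene of the SLC38 family, SLC38A12, which the table of gene names lists as TMEM104, so the rule by symbol left it out. It had 83.8 and 80.8 CPM in the nanoparticle libraries and 78.0 and 82.6 CPM in the PBS libraries, with overlap between the groups (log2 fold change 0.035, SE 0.043, edgeR adjusted p = 0.741). Per length it stood at 17.1 CPM per kilobase over the 4 libraries, next to SLC7A1 at 16.9.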
